A study of Mus musculus with 7 samples.

Results

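GABA-A receptors are chloride channels opened by the transmitter GABA, built as pentamers that usually combine alpha, beta and gamma subunits. The 7 subunit genes described here are the alpha subunit genes Gabra2, Gabra3, Gabra4 and Gabra5, the beta subunit genes Gabrb1 and Gabrb2, and the gamma subunit gene Gabrg3. They were taken by symbol from the Entrez identifiers of the deposited table, where all 7 were found among 26286 genes, and all 7 were among the 13681 genes tested. The libraries are polyA RNA-seq of cells labelled cortical neurons from the brains of male C57BL/6 embryos at E16.5, with 3 wild type and 4 KAT7 mutant animals. The enzyme KAT7 acetylates histones and belongs to the MYST group. The labels name neither the mutant allele nor a Cre driver, so the cells in which Kat7 was removed are not known here.

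As background, the alpha subunit sets much of a receptor's kinetics, place on the cell and drug response, the beta subunit is needed for assembly and carries part of the GABA binding site, and the gamma subunit is needed for clustering at synapses and for benzodiazepine action. In the embryonic cortex, receptors with alpha subunits other than the main adult one prevail, GABA often depolarises young neurons because their chloride is high, and GABA acts on migrating and differentiating cells before most synapses exist. The subunit genes lie in clusters in mammalian genomes. According to the RefSeq gene table of assembly GRCm38.p6, Gabra2, Gabra4 and Gabrb1 lie in a cluster on chromosome 5, Gabrg3 and Gabra5 next to each other on chromosome 7, Gabrb2 on chromosome 11 and Gabra3 on chromosome X.

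Libraries held 8272487 to 8813060 counts. Kat7 checked the labels: it had 848 to 869 counts in the wild type libraries and 3 to 10 in the KAT7 mutant libraries, which put the mutant sum, per library size, at 0.598% of wild type (exact 95% interval 0.365 to 0.925 from the binomial, counting error only). The defining genes of cortical excitatory neurons were present in every library, and the 8 of them summed to 4053 to 4474 CPM (counts scaled to the library size, as usual in RNA-seq) in wild type and 4340 to 4532 CPM in KAT7 mutant. Markers of other cells were present too. The 12 interneuron and ventral telencephalon markers summed to 317 to 491 CPM in wild type and 399 to 547 CPM in KAT7 mutant, and the 8 radial glia markers to 240 to 260 CPM and 177 to 216 CPM. None of the markers of these 3 lists was at 0 in every library. Of the tested genes, 28.9% were called between genotypes by edgeR's quasi-likelihood test at a Benjamini-Hochberg adjusted p under 0.05, 15.8% as lower and 13.1% as higher in KAT7 mutant.

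Of the 7 subunit genes, 5 were lower in KAT7 mutant and 2 were not called, against the 15.8% of all tested genes called lower. The lower ones were Gabrg3, Gabra5, Gabra2, Gabrb2 and Gabra3, and the uncalled ones were Gabra4 and Gabrb1. The same 5 had genotype ranges that did not overlap, against 18.8% of all tested genes with all mutant libraries below all wild type libraries and 35.3% with no overlap in either direction. Gabrg3 passed the filter on low counts only through its wild type libraries, so that it had to differ. Among the other 6 members, 4 were called lower. The median log2 fold change of the 7 was -0.48, beside 0.00 over all tested genes. The 5 falls kept their direction and their call under each of 17 alternatives. These were refits, including one without KAT7 mutant replicate 1, and a stricter threshold of adjusted p under 0.01.

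The sequences upstream of the 5 genes that fell are shown because these genes moved in one direction. They are the 250 bases before a start site in RefSeq's promoter table (GRCm38.p6), 5′ to 3′ on the gene's strand, at the most upstream start listed for each gene. Capitals mark matches to the motifs searched on both strands, which were TATAAA (the TATA box), TGACGTCA (the cyclic AMP response element), GGGCGG (the GC box) and CACGTG (an E-box). No 2 matches overlap here.
Gabrg3 (chr7:57387216-57387465, minus strand): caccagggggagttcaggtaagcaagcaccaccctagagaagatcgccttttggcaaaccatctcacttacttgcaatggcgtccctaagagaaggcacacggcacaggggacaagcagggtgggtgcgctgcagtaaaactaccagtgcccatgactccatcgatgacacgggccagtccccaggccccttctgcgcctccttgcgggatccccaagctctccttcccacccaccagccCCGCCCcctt
Gabra5 (chr7:57510060-57510309, minus strand): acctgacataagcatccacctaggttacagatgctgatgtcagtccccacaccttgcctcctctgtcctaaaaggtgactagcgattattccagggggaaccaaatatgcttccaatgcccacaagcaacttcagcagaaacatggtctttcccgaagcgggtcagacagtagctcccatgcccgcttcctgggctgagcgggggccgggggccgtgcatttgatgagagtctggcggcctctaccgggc
Gabra2 (chr5:71095850-71096099, minus strand): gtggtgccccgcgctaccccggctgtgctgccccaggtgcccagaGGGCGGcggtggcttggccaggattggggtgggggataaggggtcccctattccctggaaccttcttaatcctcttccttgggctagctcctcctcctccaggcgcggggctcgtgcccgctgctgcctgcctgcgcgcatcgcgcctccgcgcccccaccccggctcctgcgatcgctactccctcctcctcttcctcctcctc
Gabrb2 (chr11:42420190-42420439, plus strand): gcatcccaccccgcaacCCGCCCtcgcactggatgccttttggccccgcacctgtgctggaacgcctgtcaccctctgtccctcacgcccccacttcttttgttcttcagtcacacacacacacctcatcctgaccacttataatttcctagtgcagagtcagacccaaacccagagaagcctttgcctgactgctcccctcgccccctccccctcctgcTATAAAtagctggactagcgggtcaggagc
Gabra3 (chrX:72656920-72657169, minus strand): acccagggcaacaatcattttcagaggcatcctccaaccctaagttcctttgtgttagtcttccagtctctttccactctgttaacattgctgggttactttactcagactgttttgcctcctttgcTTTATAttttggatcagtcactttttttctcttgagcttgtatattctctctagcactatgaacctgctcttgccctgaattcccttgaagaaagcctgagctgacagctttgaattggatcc

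These windows had little in common. A TATAAA match stood at position -30 relative to the start site in Gabrb2 and at position -123 on the opposite strand in Gabra3, where 12.4% of all 32841 windows hold this motif. GGGCGG, present in 32.7% of all windows, stood once each in Gabra2, Gabrb2 and Gabrg3. The cyclic AMP response element, which 1.55% of all windows hold, and the E-box, which 6.02% hold, were in none of the 5. The Gabra2 window had 18 CpG dinucleotides and a GC content of 70.0%, the Gabra3 window had 0 CpG and 42.4% GC, and the median over all windows was 6 CpG and 52.4% GC. The windows of the other 3 had 8 or 9 CpG. The long non-coding RNA gene Gm9962, with 3 counts over all 7 libraries, overlaps Gabra5 in the RefSeq table. The uncalled genes Gabra4 and Gabrb1 start head to head and overlap at their 5′ ends in the RefSeq table, and Gabra5 overlaps neighbouring genes at both ends. The strand setting of the counting is not known, so reads from such overlaps cannot be assigned with certainty.

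**Figure D1:**
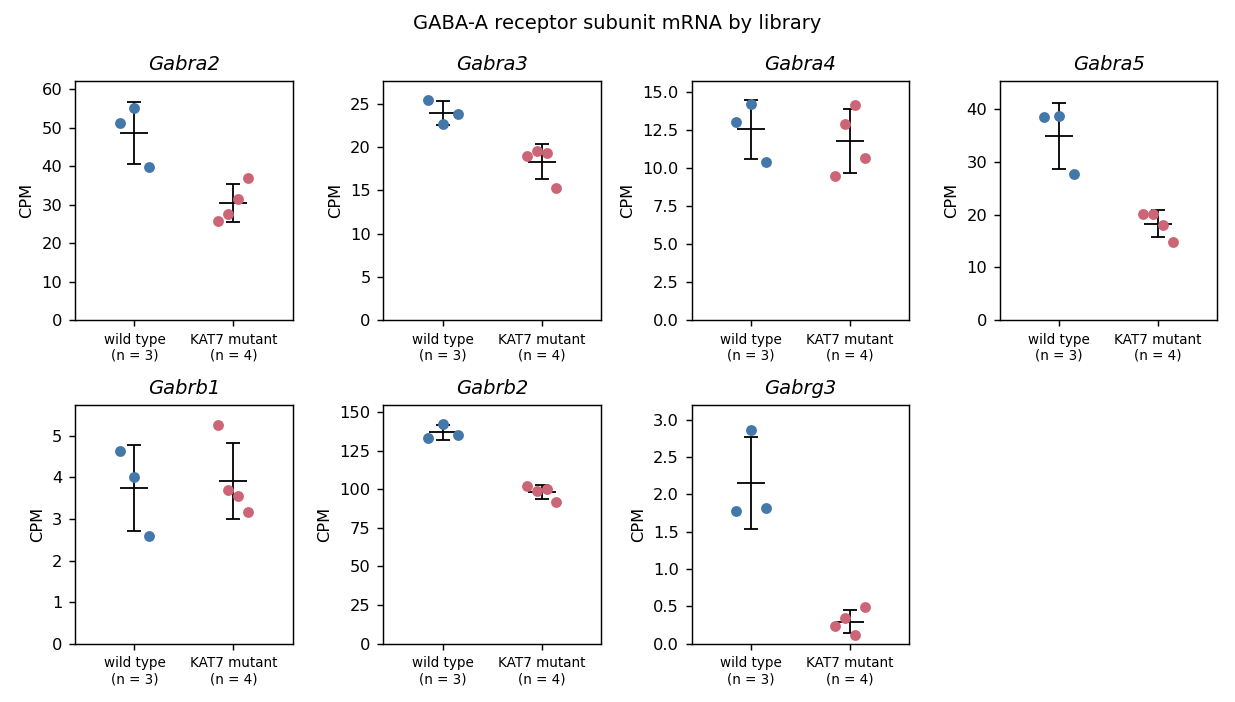
CPM (vertical axes from 0) of the 7 subunit genes in each library, wild type in blue (n = 3) and KAT7 mutant in red (n = 4), with the mean as a horizontal line and the SD as bars. The mutant points lie below all wild type points for Gabra2, Gabra3, Gabra5, Gabrb2 and Gabrg3, and the groups overlap for Gabra4 and Gabrb1.

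The alpha subunit with the largest fall was Gabra5, whose receptors lie largely outside synapses and carry tonic currents. In order of replicate number, Gabra5 had 38.5, 38.7 and 27.7 CPM in wild type and 20.2, 20.1, 18.1 and 14.8 CPM in KAT7 mutant. Its lowest wild type library, replicate 3, was still above its highest mutant library. Gabra5 fell by 0.93 ± 0.12 (SE) on the log2 scale, to 0.524 of the wild type level, with an edgeR adjusted p of 6.75e-06.

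Gabra2 encodes the alpha subunit common at embryonic synapses and on the axon initial segment. Its wild type levels were 51.2, 55.2 and 39.7 CPM, and its mutant levels 25.8, 27.5, 31.4 and 36.9 CPM. The groups stood close at their edges, where wild type replicate 3 was the lowest and mutant replicate 4 the highest of its group. The log2 fold change of Gabra2 was -0.68 ± 0.11 (SE), with an edgeR adjusted p of 0.000117.

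Gabra3, an X-linked gene whose subunit is prominent in the developing brain, changed least among the called members. It had 25.4, 22.7 and 23.9 CPM in wild type and 18.9, 19.6, 19.4 and 15.3 CPM in KAT7 mutant. The wild type libraries lay close together, and mutant replicate 4 was apart from the other 3 mutant libraries on the low side. Gabra3 fell by 0.39 ± 0.10 (SE) on the log2 scale, with an edgeR adjusted p of 0.00691. Its adjusted p ranged from 0.00207 to 0.0408 over the refits.

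Gabra4, whose subunit often joins the delta subunit in extrasynaptic receptors of the mature brain, was not called. It had 13.1, 14.2 and 10.4 CPM in wild type and 9.46, 12.9, 14.2 and 10.6 CPM in KAT7 mutant. The ranges of the genotypes nearly coincided. The log2 fold change was -0.09 with a 95% interval of -0.39 to 0.22 (edgeR adjusted p = 0.693), so a fall of the size seen for Gabra5 or Gabra2 lies outside the interval and one of the size seen for Gabra3 lies just inside it. The sign was not stable, since leaving out wild type replicate 2 gave 0.0056 and leaving out mutant replicate 1 gave 0.0013.

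Of the beta subunits, Gabrb2 was by far the more abundant and the only one called. Its levels were 133, 142 and 135 CPM in wild type and 102, 98.5, 100.1 and 91.6 CPM in KAT7 mutant. The spread within each genotype was small beside the gap between them. Gabrb2 fell by 0.48 ± 0.05 (SE) on the log2 scale, to 0.717 of the wild type level, with an edgeR adjusted p of 1.35e-06. Gabrb1, a beta subunit also found in glia and progenitors, had 4.63, 4.005 and 2.60 CPM in wild type and 5.26, 3.71, 3.54 and 3.18 CPM in KAT7 mutant. The groups overlapped, with wild type replicate 3 the lowest and mutant replicate 1 the highest of the 7 libraries. The log2 fold change of Gabrb1 was 0.07 with a 95% interval of -0.41 to 0.55 (edgeR adjusted p = 0.847). It was -0.134 when wild type replicate 3 was left out and -0.103 when mutant replicate 1 was.

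The gamma subunit gene Gabrg3, whose product is a minor gamma subunit in the brain, had the largest relative fall and the lowest level of the 7. Reads of Gabrg3 numbered 15, 25 and 16 in the wild type libraries and 2, 3, 1 and 4 in the mutant libraries. All 4 mutant libraries were far below the lowest wild type library. Summed over libraries and scaled to library size, the 10 mutant and 56 wild type counts put the mutant level at 13.7% of wild type (exact 95% interval 6.24 to 27.15 from the binomial, counting error only). In the edgeR fit the log2 fold change of Gabrg3 was -2.80 ± 0.42 (SE), with an adjusted p of 4.00e-05, and it ranged from -3.13 to -2.55 over the refits. Because Gabrg3 passed the count filter only through wild type libraries, its direction in this fit was set by the filter. The adjusted p is therefore a description only. The 3 genes whose log2 CPM followed Gabrg3 most closely over the 7 libraries were Zw10 (Pearson r = 0.9961), Ephb6 (0.9956) and Vps26a (0.9933). These correlations are a description only, since the 7 points share the difference between genotypes.

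Levels of different genes were compared per gene length, as RPKM, which is CPM divided by the deposited gene length in kilobases. In wild type the order was Gabra2 at 20.4 ± 3.35 (SD, n = 3), Gabrb2 at 18.1 ± 0.641, Gabra5 at 13.1 ± 2.34, Gabra3 at 6.43 ± 0.370, Gabra4 at 3.04 ± 0.471, Gabrb1 at 2.01 ± 0.559 and Gabrg3 at 1.29 ± 0.368 RPKM. The ranges of Gabra2 and Gabrb2 overlapped, as did those of Gabrb1 and Gabrg3, so the order within these pairs was not resolved. In KAT7 mutant the RPKM of Gabrb2 (13.0 ± 0.615, SD, n = 4) and Gabra2 (12.7 ± 2.06) again overlapped. They were followed by Gabra5 at 6.84 ± 0.943, Gabra3 at 4.91 ± 0.544, Gabra4 at 2.86 ± 0.516, Gabrb1 at 2.11 ± 0.493 and Gabrg3 at 0.178 ± 0.0948 RPKM. Here Gabra4 and Gabrb1 overlapped in range, and Gabrb1 and Gabrg3 no longer did.

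**Figure D2:**
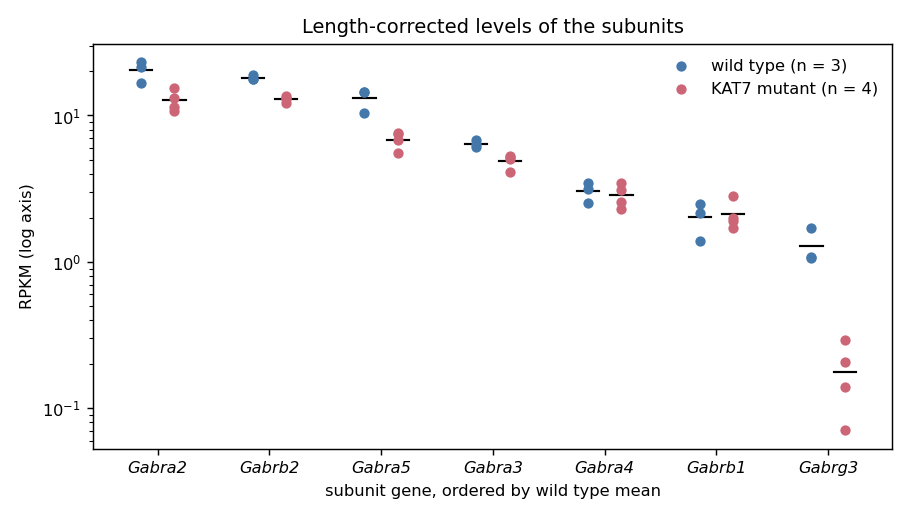
RPKM (log axis) of the 7 subunit genes in each library, ordered by the wild type mean, with wild type in blue (n = 3), KAT7 mutant in red (n = 4) and black lines at the means. Gabra2 and Gabrb2 are at the top in both genotypes, and Gabrg3 drops from a mean of 1.29 to 0.178 RPKM.

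The summed RPKM of the 7 genes was 67.0, 69.8 and 56.3 in the wild type libraries and 42.2, 42.6, 43.8 and 41.8 in the mutant libraries. The mutant sum was 66.2% of the wild type mean and varied less between libraries than its parts did. Among the mutant libraries, replicate 4 had the highest Gabra2 and Gabrg3 and the lowest Gabra3, Gabra5, Gabrb1 and Gabrb2. Among the wild type libraries, replicate 3 was the lowest for 4 of the 7 genes.

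The make-up of the 4 alpha subunit mRNAs was expressed as each gene's share of their summed RPKM. Gabra2 made up 46.7%, 49.0% and 46.2% in wild type and 42.0%, 42.0%, 46.0% and 55.8% in KAT7 mutant, so the groups overlapped. The share of Gabra4 was 6.92%, 7.32% and 7.03% in wild type and 8.92%, 11.4%, 12.05% and 9.33% in KAT7 mutant, and every mutant library was above every wild type library. The mean share of Gabra4 was 7.09% ± 0.203 (SD, n = 3) and 10.4% ± 1.53 (SD, n = 4). Gabra5 shares were 31.4%, 30.7% and 28.9% in wild type and 29.4%, 27.4%, 23.7% and 20.01% in KAT7 mutant, with an overlap at mutant replicate 1. Gabra3 shares overlapped as well, at means of 15.2% ± 2.48 (SD, n = 3) and 18.0% ± 2.20 (SD, n = 4). The shares are a description with no test, and they cover these 4 genes alone.

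**Figure D3:**
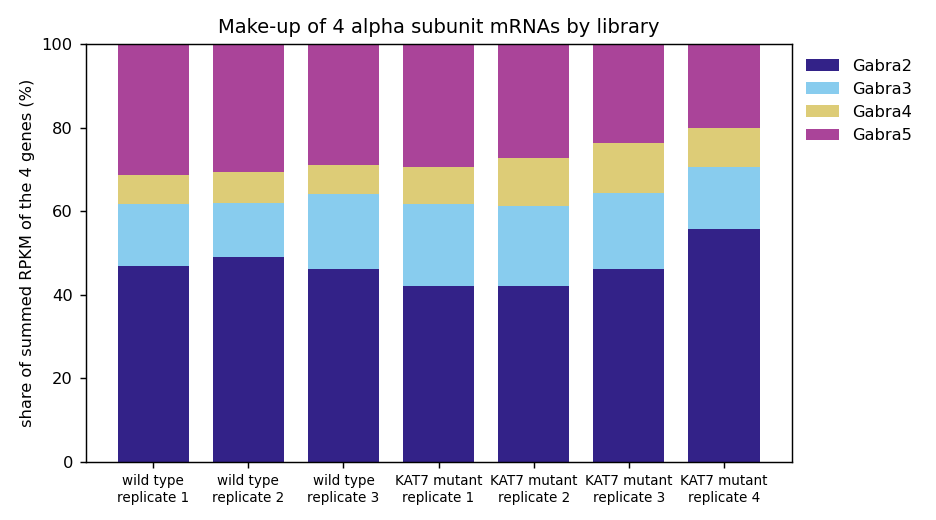
Share (%, vertical axis) of Gabra2, Gabra3, Gabra4 and Gabra5 in their summed RPKM, as 1 stacked bar for each of the 7 libraries. The Gabra4 band is wider in all 4 KAT7 mutant libraries (8.92% to 12.05%) than in the 3 wild type libraries (6.92% to 7.32%), and mutant replicate 4 has the widest Gabra2 band.

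The genes beside the subunits in the clusters were examined next. On chromosome 5, Gabrg1, a gamma subunit gene of low level next to Gabra2, was called higher, with wild type libraries at 0.594, 0.915 and 0.452 CPM and mutant libraries at 1.40, 1.97, 1.06 and 1.22 CPM. The log2 fold change of Gabrg1 was 1.10 ± 0.39 (SE, edgeR adjusted p = 0.0394). It passed the count filter only through mutant libraries, so that its direction was set by the filter. It was not tested without KAT7 mutant replicate 1, 2 or 4, and it lost its call with DESeq2 (adjusted p = 0.17), and in edgeR without wild type replicate 1 (0.106) or 3 (0.154). The genes flanking this cluster were Gnpda2 at a log2 fold change of 0.02 ± 0.13 (SE) and Commd8 at -0.13 ± 0.10, both uncalled. Next out was Guf1, called higher at 0.25 ± 0.09 (SE, edgeR adjusted p = 0.0362), a call lost under 8 of 17 alternatives. Beside Gabra3 on chromosome X, the subunit genes Gabre and Gabrq had 4 and 2 counts over all 7 libraries, and Cetn2 was uncalled at -0.21 ± 0.11. On chromosome 11 the flanking genes Ccng1 and Nudcd2 were uncalled at -0.17 ± 0.08 and -0.16 ± 0.11. Ccng1 was called without KAT7 mutant replicate 1 (-0.25, edgeR adjusted p = 0.0072).

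In the wider family, 12 further subunit genes were listed, 5 were tested, and 3 of these were called lower (2 to 3 with 1 library left out) and 1, Gabrg1, higher, beside 15.8% and 13.1% of all tested genes. Of the 3 lower, 1 passed the count filter only through wild type libraries and lost its call under 10 of 17 alternatives, so these counts are a description only. Among the 23 genes for proteins that anchor, assemble or move GABA-A receptors, all tested, 6 were called higher and 4 lower, or 43.5% against 28.9% of all tested genes, at a median log2 fold change of 0.01. Higher calls numbered 4 to 7 with 1 library left out. The lower ones included Slitrk3, an adhesion protein of inhibitory synapses, at -0.81 ± 0.20 (SE, edgeR adjusted p = 0.0039), and Iqsec3, a gephyrin-binding exchange factor, at -0.59 ± 0.12 (edgeR adjusted p = 0.000918). Slitrk3 had 5.20 to 7.84 CPM in wild type and 2.78 to 4.52 CPM in KAT7 mutant, with no overlap. Mdga1, which binds neuroligins and restrains inhibitory synapses, had 176 to 188 CPM in wild type and 216 to 293 CPM in KAT7 mutant, and rose by 0.47 ± 0.07 (SE, edgeR adjusted p = 7.17e-05) on the log2 scale. Plcl1, which binds the receptor and its phosphatases, rose by 0.48 ± 0.08.

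Of 9 listed genes that make and move GABA, 7 were tested, 4 rose and 1 fell, at a median log2 fold change of 0.23. Over all tested genes 13.1% were called higher and 15.8% lower. Gad1 and Gad2 encode the enzymes that make GABA from glutamate, Slc32a1 loads it into vesicles, and all of them mark interneurons. Gad2 had 47.6, 42.6 and 31.6 CPM in wild type and 74.5, 56.9, 77.5 and 64.7 CPM in KAT7 mutant, with no overlap. Slc32a1 rose by 0.44 ± 0.13 (SE, edgeR adjusted p = 0.0123), but was not called without wild type replicate 2 (0.0753) or replicate 3 (0.0812). Higher calls in this list fell to 2 without wild type replicate 2 or 3 and by DESeq2, which did not call Gad1 (adjusted p = 0.0574). The robust edgeR fit did not call Gad1 either (adjusted p = 0.116). The 1 fall was Slc6a11, a GABA transporter best known from astrocytes. Slc6a11 had 25.1, 25.6 and 19.3 CPM in wild type and 6.43, 9.39, 9.33 and 9.41 CPM in KAT7 mutant, a log2 fold change of -1.43 ± 0.14 (SE, edgeR adjusted p = 1.30e-07). Beside these values, 6 of 11 tested interneuron and ventral telencephalon markers were called higher and 1 lower, while 2 of 3 tested astrocyte markers and 5 of 7 tested radial glia markers were called lower, beside 13.1% higher and 15.8% lower over all tested genes. Of the oligodendrocyte lineage markers 4 of 5 were called higher, with sums of 10.2 to 13.96 CPM in wild type and 16.8 to 32.4 CPM in KAT7 mutant. Among the called ones, Sox10 passed the count filter only through mutant libraries. Microglia markers were called higher in 4 of 6 cases and summed to 16.9 to 20.02 CPM and 26.7 to 35.6 CPM. The intermediate progenitor markers, 2 of 4 called lower, summed to 189 to 217 CPM and 143 to 177 CPM, without overlap. Striatal neuron markers, 3 of 6 higher and 1 lower, summed to 19.5 to 25.8 CPM and 24.8 to 36.0 CPM. Of the striatal calls, Six3 and Ebf1 passed the count filter only through mutant libraries, and Penk only through wild type libraries. Among the radial glia calls, Hes5 also passed only through wild type libraries, with 20, 28 and 27 counts there and 5, 7, 12 and 15 in KAT7 mutant. The direction of these calls, and of the call of Sox10, was set by the filter. Thalamus markers, 2 of 4 lower, summed to 74.2 to 84.8 CPM and 61.8 to 76.1 CPM, and no tested endothelial or blood marker was called. Most of the thalamus sum came from Slc17a6, which is also on the cortical excitatory list. It had 49.3 to 58.6 CPM in wild type and 41.0 to 51.7 CPM in KAT7 mutant. Slc17a6 and Prox1 were the 2 lower thalamus calls, and Tcf7l2 and Lhx9 were uncalled. The 5 astrocyte markers summed to 26.0 to 35.6 CPM in wild type and 11.0 to 20.4 CPM in KAT7 mutant, and none was at 0 in every library. The part of these markers in the results for the subunits and for these genes was not tested. In bulk RNA, fewer cells of a type and less RNA per cell cannot be told apart.

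Chloride cotransporters set the direction of current through GABA-A receptors, and 3 of them changed by more than 2-fold. Slc12a5, the neuronal potassium-chloride cotransporter that lowers chloride as neurons mature, had 8.67, 7.21 and 3.96 CPM in wild type and 14.4, 12.4, 14.5 and 12.6 CPM in KAT7 mutant. All mutant libraries were above all wild type libraries, and wild type replicate 3 was the lowest. Slc12a5 rose by 1.03 ± 0.18 (SE) on the log2 scale, with an edgeR adjusted p of 0.000177, and by 0.76 to 1.27 over the refits. The related potassium-chloride cotransporter genes Slc12a4 and Slc12a7, which serve cell volume in many tissues, fell. Slc12a4 had 13.9 to 14.2 CPM in wild type and 2.80 to 3.94 CPM in KAT7 mutant, a log2 fold change of -2.05 ± 0.15 (SE, edgeR adjusted p = 1.97e-09). Slc12a7 fell by 1.36 ± 0.10 on the log2 scale. Stk39, a kinase that acts on these transporters, rose by 0.24 ± 0.06. Of the 12 genes of this list, all tested, 4 rose, 2 fell and 6 were not called, at a median log2 fold change of 0.05, beside 13.1% higher and 15.8% lower over all tested genes. Higher calls were 2 when wild type replicate 3, or mutant replicate 2 or 4, was left out, and 2 with library size only.

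Receptors of related kinds came last. Of 6 listed genes of the metabotropic GABA-B receptor, 4 were tested and 3 called lower, at a median log2 fold change of -0.34, beside 15.8% of all tested genes called lower. Kctd12, an auxiliary subunit that shapes the receptor's response, had 134 to 151 CPM in wild type and 86.4 to 113 CPM in KAT7 mutant, and fell by 0.52 ± 0.08 (SE, edgeR adjusted p = 4.08e-05) on the log2 scale. Gabbr1, the GABA-binding subunit, was lower by a small amount, at -0.14 ± 0.04 (edgeR adjusted p = 0.0189). The auxiliary gene Kctd8 stood at -0.98 ± 0.32 (edgeR adjusted p = 0.0273) from 2.12 CPM in wild type, and passed the count filter only through wild type libraries. Without wild type replicate 1 only Kctd12 of the 3 was called, Kctd8 and Gabbr1 having edgeR adjusted p of 0.122 and 0.0645. Leaving out wild type replicate 2, or mutant replicate 3 or 4, also ended the call of Kctd8, and leaving out mutant replicate 2 that of Gabbr1. Glra2, the embryonic alpha subunit of the glycine receptor, had 65.3, 76.3 and 79.2 CPM in wild type and 38.2, 44.1, 40.3 and 41.4 CPM in KAT7 mutant. Glra2 fell by 0.84 ± 0.07 (SE) on the log2 scale, with an edgeR adjusted p of 4.35e-08, and was 1 of 2 tested glycine receptor genes.

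**Figure D4:**
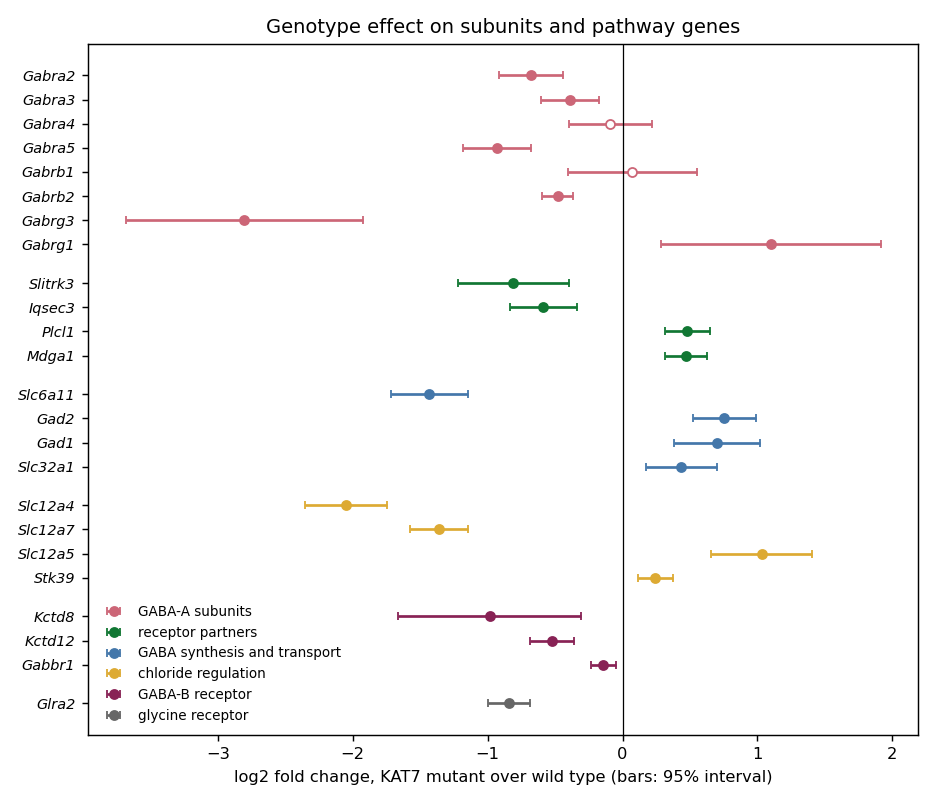
Log2 fold change of KAT7 mutant over wild type (horizontal axis) with 95% intervals from the edgeR fit for the 7 subunit genes, Gabrg1 and named genes of the pathway lists, coloured by list, filled where called and open where not. The 5 called subunits lie left of 0 from Gabra3 at -0.39 to Gabrg3 at -2.80, and Gad2, Gad1, Slc32a1 and Slc12a5 lie right of 0.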

How the data were processed

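The authors deposited whole-number read counts per Entrez gene for the 7 libraries, with a gene length beside each row. Per the submitters' processing notes, featureCounts made them and the build was mm9. For the aligner, annotation release and strandedness of counting, nothing is given in the sources used here. Symbols came from the RefSeq gene table of GRCm38.p6 for 24176 identifiers (92%), and its build was used for names, gene order and the promoter sequences only. The edgeR function filterByExpr (minimum count 10) left 13681 genes. TMM factors and the edgeR (version 4.0.16, R 4.3.3) quasi-likelihood F test with genotype as the only term followed, two-sided, with Benjamini-Hochberg adjustment over all tested genes. The SE was derived from the log2 fold change and F, and CPM and RPKM use TMM library sizes. The fit was tested on simulated data.

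The members, lists and tests were chosen with earlier results of these data known. Named were the members, tested family genes, up to 4 called genes per list with the largest changes, cluster genes, Kat7 and 3 genes most like the most changed member. Part of the genes admitted by this rule is not reported here. Alternatives were RLE, upper-quartile or no factors, 2 other count filters, DESeq2 1.42.0, limma-voom (limma 3.58.1), a robust fit, a replicate block, each library left out, and an adjusted p under 0.01. Replicates are separate mice by the series' design. Pairs of libraries of 1 genotype differed by more than counting noise (chi-square per gene 2.06 to 3.67), so none was taken as a repeat.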

Additional observations from a re-analysis of the deposited data

Results flagged for a closer look

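In the group of 4 KAT7 mutant libraries, 29 named genes were examined for a library far from the other 3, by Dixon's ratio of the gap to the nearest library over the whole range, whose 95% critical value chance exceeds in about 1 of 20 groups. For 4 genes a library stood apart. Gabra3 was lowest in KAT7 mutant replicate 4, at 15.3 CPM against 18.9 to 19.6 CPM in the others. Gabra3 was still called when that library was left out (edgeR adjusted p = 0.0267). Kat7 was highest in the same replicate, at 1.22 CPM against 0.35 to 0.464 CPM. Slc32a1 was lowest in replicate 2, at 20.5 CPM against 27.3 to 27.8 CPM, and Slc6a11 was lowest in replicate 1, at 6.43 CPM against 9.33 to 9.41 CPM.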

How the results depend on the processing

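The count of subunit genes called lower was 5 of 7 under each of 17 alternatives, all drawn from the same 7 libraries. This count includes Gabrg3, which passed the count filter only through wild type libraries. The genes called numbered 1793 higher and 2163 lower, and 1034 higher at an adjusted p under 0.01; with 1 library left out they were 1273 to 1776 and 1826 to 2212. Of 660 values of 39 named genes under the alternatives, 608 kept direction and call, 43 lost the call, 1 gained it and 8 turned in sign. The sign turned for Gabra4 (-0.209 to 0.0056 with 1 library left out, 0.0056 leaving out wild type replicate 2, 0.0013 leaving out mutant replicate 1), Gabrb1 (-0.134 to 0.246 with 1 library left out, -0.134 leaving out wild type replicate 3, -0.103 leaving out mutant replicate 1) and the neighbour Gnpda2 (-0.0033 with the replicate block, -0.0258 leaving out wild type replicate 1, -0.0266 and -0.00197 leaving out mutant replicates 1 and 3, up to 0.116 without replicate 2), none of which was called in any refit. Higher calls in the further subunit list were 0 by DESeq2 and at an adjusted p under 0.01, and 0 to 1 with 1 library left out. In the GABA synthesis and transport list they were 2 by DESeq2 and at the stricter threshold, and 2 to 4 with 1 library left out. In the chloride list they were 2 with library size only, with the replicate block and at the stricter threshold, and 2 to 3 with 1 library left out. Lower calls among GABA-B receptor genes were 1 with the replicate block and at the stricter threshold, and 1 to 3 with 1 library left out. The cause of these losses was not tested.

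The labels do not say that replicate numbers pair the animals. Deviations of same-numbered libraries had correlations of 0.018, 0.012 and -0.029, and none of wild type replicates 1 to 3 matched its own number best. With so few libraries, these values cannot exclude a shared litter or day. With the replicate block 1460 genes were called higher and 1943 lower. On CPM without gene length the shares of the 4 alpha genes in wild type were 40.4% for Gabra2, 20.2% for Gabra3, 10.4% for Gabra4 and 29.0% for Gabra5, and in KAT7 mutant 38.6%, 23.2% and 14.9% for the first 3. Depth limits Gabrg3, which had 1 to 4 counts in mutant libraries.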
